A study of Arabidopsis thaliana with 12 samples.

Results

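Phosphoribosyl pyrophosphate synthesis and the purine and thiamine steps fed by it were represented on this Arabidopsis thaliana array by 4 genes, each with 1 feature annotated to it alone. Features annotated with several genes also touch these pathways, 1 of them naming AT1G31220, and are described at the end. The members were the features whose platform annotation names exactly 1 gene, that gene being AT2G35390 or AT2G44530, both phosphoribosyl pyrophosphate synthetases, AT1G31220, a formyltransferase of purine synthesis, or THIC (AT2G29630), the enzyme that makes the pyrimidine part of thiamine. These were 4 features of 692 with a single gene and of 3439 in all. The control group held 6 samples of wild type plants of the ecotype Wassilevskija, whose roots spent 48 h on MS, a mineral plant culture medium, with 100 mM glucose. The other group held 6 samples of the mutant kn09 in the same ecotype, kept for 48 h on MS medium with 100 mM proline. The labels call kn09 hypersensitive to proline and blocked in its mitochondrial breakdown. They do not name the mutated gene, and they do not say which tissue gave the RNA or whether each sample was a plant, or a pool of plants, of its own. Genotype and the added compound changed together and cannot be told apart here, and if the samples are repeats of the same material the p-values reflect technical spread alone.

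Phosphoribosyl pyrophosphate is made from ribose 5-phosphate and ATP by the synthetases, and it is the activated ribose from which purine and pyrimidine nucleotides, histidine, tryptophan and NAD are built. In purine synthesis the ring is assembled on this sugar step by step, and AT1G31220 encodes the phosphoribosylglycinamide formyltransferase, which adds a carbon from formyl-tetrahydrofolate early in the series. A later intermediate of the same series, aminoimidazole ribotide, is where the thiamine branch leaves: THIC, an iron-sulfur enzyme of the plastid, rearranges it into the pyrimidine of thiamine. The synthetases thus act upstream of both later enzymes.

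The deposited values are intensities on a scale set by the authors, with a floor at 0 and a ceiling just under 100, and the number of arrays limits the precision. Sample medians ran from 0.137 to 0.224 in wild type and from 0.164 to 0.196 in kn09. Wild type samples held 175 to 265 features at 0 and kn09 samples 317 to 475, whereas the 4 genes had 0 values at 0. In each group, samples 1 and 2, samples 3 and 4, and samples 5 and 6 resembled each other, with rank correlations of 0.838 to 0.943, against 0.782 to 0.874 for other samples of the same group. The 4 genes were therefore also fitted with these pairs averaged, 3 values against 3, and with the pairs as a random block in limma. Wild type samples 1 and 2 stood nearer to kn09 than the other wild type samples did, with median rank correlations with the kn09 samples of 0.796 and 0.791 against 0.714 to 0.742, so the 4 genes were also fitted without them. In a bulk RNA sample, fewer cells of a type and less RNA per cell cannot be told apart.

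Setting the mutant on proline against wild type on glucose asks how the transcripts of these 4 genes respond to mutation and medium together. Of the 4 genes, AT2G35390 rose and the other 3 did not pass the test. The test was limma on normalized log2 intensities with a Benjamini-Hochberg adjusted p of 0.05 over all 3439 features, and 27.7% of all features passed it, 14.1% as higher and 13.6% as lower in kn09. The intensity of AT2G35390 had its lowest value at 0.119, its median at 0.193 and its highest value at 0.352 in wild type. In kn09 the lowest value was 1.18, the median 1.31 and the highest 1.91. Every kn09 sample was brighter than every wild type sample, and the dimmest kn09 sample was 3.36 times as bright as the brightest wild type sample. Over the whole array the groups failed to overlap for 18% of features, 9.28% with kn09 higher and 8.69% with kn09 lower.

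Averaged over 6 samples each, AT2G35390 went from 0.214 ± 0.0799 to 1.42 ± 0.272 (SD). On the normalized log2 scale the difference was 2.81 ± 0.23 (SE), with a 95% interval of 2.31 to 3.31, which is a 7.0-fold increase with an interval of 4.95 to 9.89. The adjusted p was 5.12e-06 in limma. It was 0.0178 on the pair means, where 2.53% of features passed as higher and 3.66% as lower, and 4.25e-05 with the pairs as a random block, where 10.1% did. Without wild type samples 1 and 2 the log2 difference was 2.69. The spot lay near the middle of the array in wild type, brighter than 42.9% to 64.1% of the features of the same sample, and in the upper part in kn09, brighter than 87.4% to 91.8%. By the size of its increase it ranked 49 among all features and 5 among those with a single gene.

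The other synthetase, AT2G44530, did not show this increase. Its intensity in wild type had a lowest value of 0.105, a median of 0.156 and a highest value of 0.196. In kn09 these were 0.0551, 0.110 and 0.286. The groups overlapped: in deposited intensity 2 kn09 samples were below and 1 was above the whole wild type range. On the normalized log2 scale the lowest kn09 value, -3.72, was not below the lowest wild type value, -3.78. Mean intensities were 0.157 ± 0.0363 (SD) for the 6 wild type and 0.132 ± 0.0795 (SD) for the 6 kn09 samples. By pairs of samples they were 0.119, 0.195 and 0.156 in wild type and 0.0919, 0.194 and 0.110 in kn09. The mean intensity of samples 3 and 4 was thus the highest in both groups. In kn09 it rested on sample 4, at 0.286, while sample 3, at 0.102, was below the kn09 median. On the normalized log2 scale the wild type pair of samples 3 and 4, at -2.69, was below another wild type pair, at -2.30. The log2 difference was -0.14 ± 0.36 (SE), with a 95% interval of -0.93 to 0.65 and an adjusted p of 0.806 in limma. The adjusted p was 0.867 for pair means and 0.881 for pairs as a random block. The interval allows a change of up to 1.57-fold upward and does not show that the transcript stayed level. The sign turned in 1 of the 12 fits that left out a single sample: without kn09 sample 1, the dimmest, the log2 difference was 0.0079. Without kn09 sample 4, the brightest, it was -0.39, and without wild type samples 1 and 2 it was -0.49. Across the 12 alternative settings it stayed negative, from -0.49 to -0.10. In deposited intensity 1 of the 6 kn09 samples was above the wild type median.

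**Figure D1:**
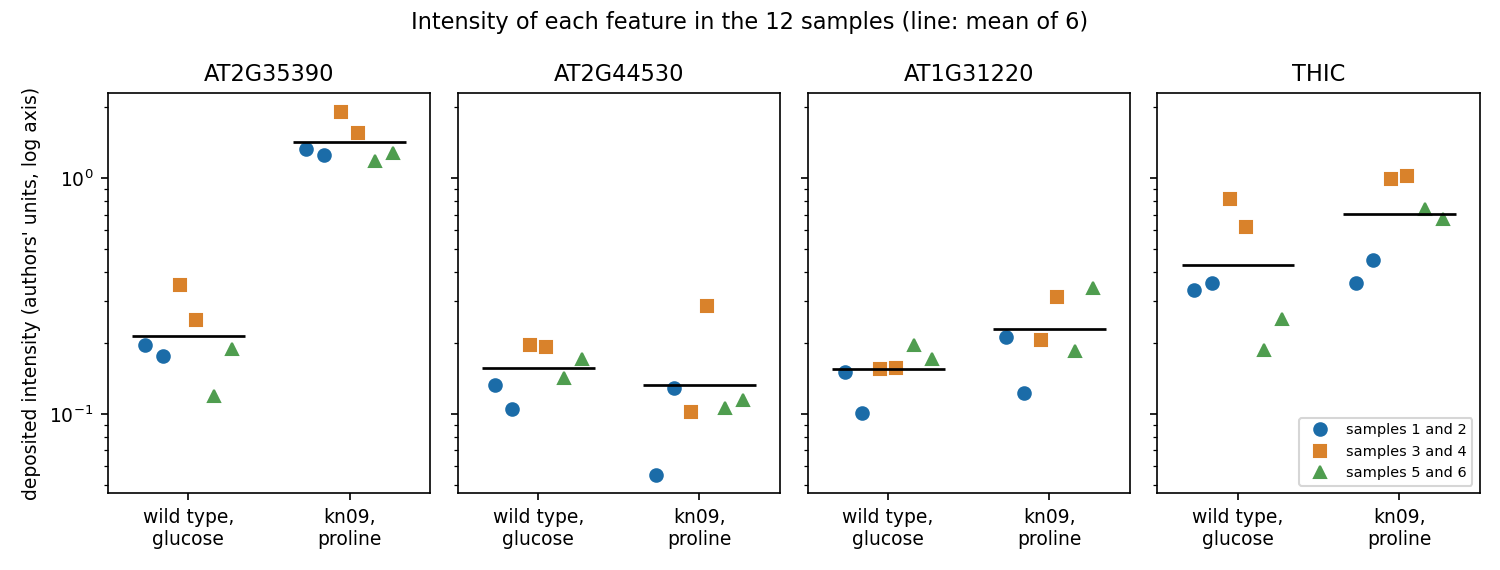
Deposited intensity in the authors' units (vertical log axis) of the features for AT2G35390, AT2G44530, AT1G31220 and THIC in the 6 wild type samples on glucose and the 6 kn09 samples on proline; each point is a sample, marker and colour give the sample pair, and the line is the group mean. For AT2G35390 the kn09 samples, from 1.18 to 1.91, lie above all wild type samples, from 0.119 to 0.352, while the groups overlap for the other 3 genes.

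AT1G31220, the formyltransferase that acts after the synthetases in purine synthesis, had higher values in most kn09 samples but did not pass. In wild type its lowest intensity was 0.101, its median 0.156 and its highest 0.195. In kn09 the lowest was 0.123, the median 0.209 and the highest 0.341. The groups overlapped, with 4 of the 6 kn09 samples above the highest wild type sample in deposited intensity. On the normalized log2 scale, which the fit used, only kn09 samples 4 and 6, at -1.59 and -1.67, were above every wild type sample. The 6 wild type samples averaged 0.155 ± 0.0312 (SD) and the 6 kn09 samples 0.230 ± 0.0821 (SD). Pairs of samples averaged 0.126, 0.156 and 0.183 in wild type and 0.167, 0.259 and 0.263 in kn09. The log2 difference was 0.71 ± 0.34 (SE), with a 95% interval of -0.03 to 1.45 and an adjusted p of 0.144 in limma. The adjusted p was 0.348 for pair means and 0.300 for pairs as a random block. Without wild type samples 1 and 2 the log2 difference was 0.43, with an adjusted p of 0.362. A brighter feature annotated with AT1G31220 and 2 other genes went the other way, at -0.91 with an adjusted p of 0.0271 in limma. It did not pass with sample pairs averaged, at 0.222, and it cannot be assigned to any of its genes.

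THIC, on the thiamine branch, likewise had higher values in kn09 and did not pass. Its intensity in wild type had a lowest value of 0.186, a median of 0.348 and a highest value of 0.813. In kn09 these were 0.360, 0.706 and 1.02. All 6 kn09 samples were above the wild type median, but only 2 were above the highest wild type sample. The average of the 6 wild type samples was 0.428 ± 0.240 (SD), that of the 6 kn09 samples 0.705 ± 0.271 (SD). The log2 difference was 0.75 ± 0.34 (SE), with a 95% interval of 0.0048 to 1.5, an unadjusted p of 0.0488 and an adjusted p of 0.125 in limma. Unadjusted, 39.3% of all features fell under a p of 0.05.

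The spread of THIC lay mostly between the sample pairs. Samples of a pair differed by 0.21 on the normalized log2 scale on average, whereas the pair means had an SD of 0.66 in wild type and 0.63 in kn09. In wild type the mean intensities of the pairs were 0.348 for samples 1 and 2, 0.717 for samples 3 and 4 and 0.220 for samples 5 and 6. In kn09 they were 0.405, 1.01 and 0.706 in the same order. The wild type pair of samples 3 and 4 was thus brighter than 2 of the 3 kn09 pairs. On the pair means the adjusted p of THIC was 0.373, and with the pairs as a random block it was 0.195. For AT2G35390 the samples of a pair differed by 0.31 on average, and the SD of the pair means was 0.34 in wild type and 0.28 in kn09. Samples 3 and 4 gave the brightest pair in both groups for AT2G35390, with 0.302 and 1.73, and for THIC.

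**Figure D2:**
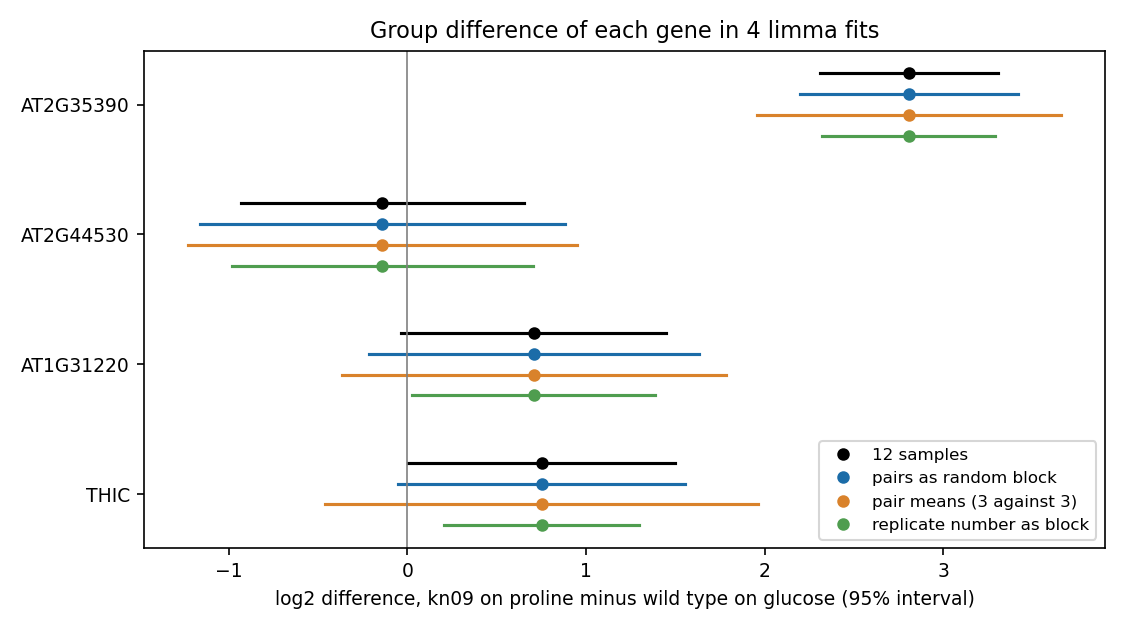
Log2 difference between kn09 on proline and wild type on glucose (horizontal axis) with its 95% interval for each of the 4 genes, in limma on the 12 samples, with sample pairs as a random block, on pair means, and with the replicate number as a block. AT2G35390 stays between 1.96 and 3.66 across these intervals, those of AT2G44530 span 0 in all 4 fits, and those of AT1G31220 and THIC span 0 for pair means and for pairs as a random block; with the replicate number as a block they run from 0.03 to 1.39 and from 0.21 to 1.3.

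Against the whole array the 4 genes were not alike. Of all features, 2.70% changed at least as much in either direction as AT2G35390, 52.5% as much as THIC, 55.5% as much as AT1G31220 and 90.3% as much as AT2G44530. Their median on the log2 scale was 0.73, against -0.03 over all features and -0.02 over the 692 with a single gene.

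**Figure D3:**
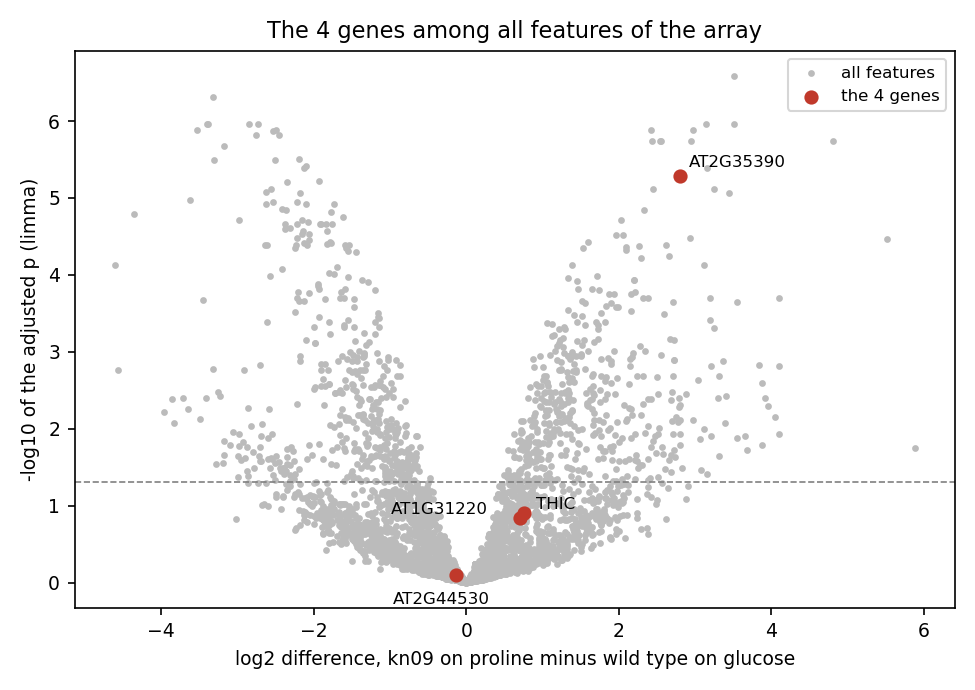
Log2 difference between kn09 on proline and wild type on glucose (horizontal axis) and -log10 of the adjusted p in limma (vertical axis) of all 3439 features in grey and the 4 genes in red; the dashed line marks the adjusted p of 0.05. AT2G35390, at 2.81, lies far above the line, and the other 3 genes lie below it.

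Whether the genes responded differently from each other was tested within samples. For each pair of genes the difference of their normalized log2 values was taken in every sample and compared between the groups, so that only the shift between groups is read and not the level of a feature against another. All 6 pairs were tested with a two-sided exact permutation test over the samples and adjusted over the 6. The smallest p it can give is 0.00216, and 0.00433 after adjustment where 3 pairs reach it. With sample pairs averaged the smallest p would be 0.1, so the test cannot be passed at that level.

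AT2G35390 rose more than its paralog AT2G44530. The difference between them lay between -0.24 and 0.98 in wild type and between 2.35 and 4.22 in kn09, with no overlap. The shift was 2.95 ± 0.34 (SE) on the log2 scale, with a 95% interval of 2.19 to 3.71 from inverting the exact permutation test and an adjusted p of 0.00433. AT2G35390 also rose more than both later enzymes. Against AT1G31220 the shift was 2.10 ± 0.36 (SE), with an interval of 1.3 to 2.91, and against THIC it was 2.05 ± 0.27 (SE), with an interval of 1.48 to 2.66. Both had an adjusted p of 0.00433 in the exact permutation test, and all 6 kn09 samples lay above all 6 wild type samples in both.

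Relative to AT1G31220, AT2G44530 shifted downward, but the call often ended when 1 sample was left out. The shift between them was -0.85 ± 0.31 (SE), with an interval of -1.53 to -0.14 and an adjusted p of 0.0390 in the exact permutation test. The groups overlapped. The call ended without wild type sample 2, 3, 4 or 6 or kn09 sample 1, 3, 5 or 6, with adjusted p up to 0.0714, and without wild type samples 1 and 2 together, at 0.0743. Between AT2G44530 and THIC the shift was -0.89 ± 0.41 (SE), with an interval of -1.83 to 0.01 and an adjusted p of 0.0649. It passed, at 0.0162 and with a shift of -1.19, under median centring and on unnormalized values. It also passed with zeros as missing, at 0.0442 and -0.99, and without kn09 sample 2, at 0.0468 and -1.02.

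The later enzymes AT1G31220 and THIC did not differ detectably in their response. The shift between them was -0.05 ± 0.50 (SE), with an adjusted p of 0.931 in the exact permutation test, and its interval of -1.16 to 1.07 allows a difference of more than 1 on the log2 scale in either direction.

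**Figure D4:**
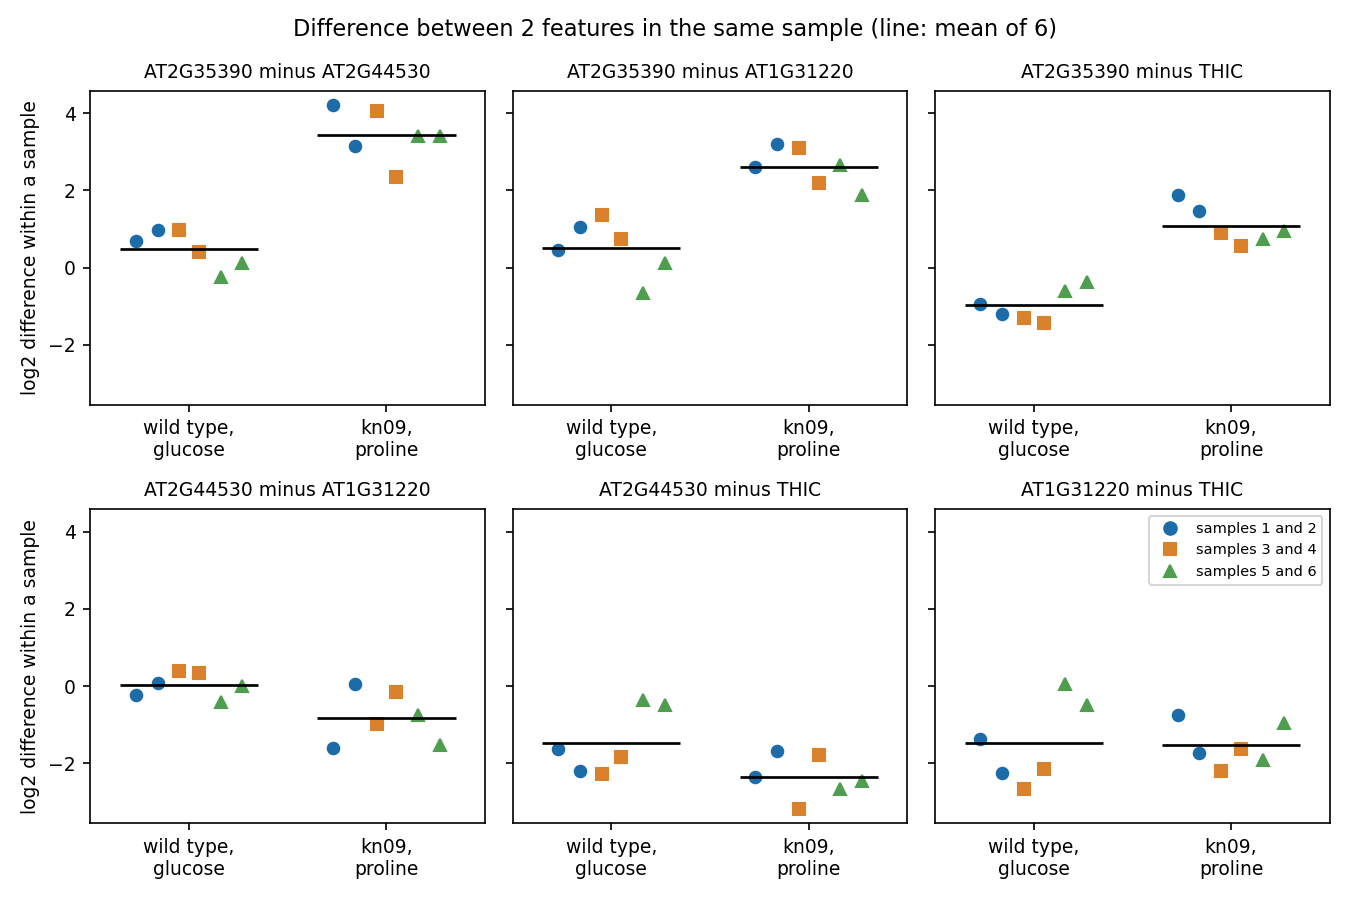
Difference of the normalized log2 values of 2 features in the same sample (vertical axis) for the 6 pairs of genes, in the 6 wild type samples on glucose and the 6 kn09 samples on proline; markers give the sample pair and the line the group mean. The 3 panels with AT2G35390 show kn09 samples above all wild type samples, and the other 3 panels show groups that overlap.

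The pathways around these genes were thinly covered. Of 139 genes on 11 lists for phosphoribosyl pyrophosphate synthesis and use, purine, pyrimidine, histidine and thiamine synthesis, purine salvage, the pentose phosphate pathway, folate carbon supply, thiamine-dependent enzymes and plastid iron-sulfur assembly, 8 had a single-gene feature, the 4 genes above and 4 more. Of these 4 more, 0 passed in limma and in the exact permutation test, and 0 had an unadjusted p under 0.05. Over all features 27.7% passed in limma and 39.3% had an unadjusted p under 0.05. UPP, AT-HF and AT1G12230 among the 4 held values at 0, so these counts do not show that the rest of the pathways stayed level. The synthetase list has 5 genes, of which the 2 described here were measured, 1 higher and 1 not passing. The list of purine synthesis has 17 genes and that of thiamine synthesis 6, with only AT1G31220 and THIC measured by features of their own.

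Upstream of the synthetases, in the pentose phosphate pathway that supplies ribose 5-phosphate, AT5G44520, of the ribose 5-phosphate isomerase family, had intensities from 0.0329 to 0.0966 in wild type and from 0.0031 to 0.0978 in kn09. Its log2 difference was -0.37 ± 0.71 (SE), and limma gave an adjusted p of 0.740. The sign turned without kn09 sample 4, at 0.19, and without kn09 sample 6, at 0.0021. AT1G12230, of the transaldolase family, was dim, with 2 wild type values and 1 kn09 value at 0. Its median intensity was 0.0136 in wild type and 0.0370 in kn09, and its adjusted p was 0.220. Its mean in kn09 rested on sample 2, at 0.332. The log2 difference was 1.75 ± 1.0 (SE), but 1.06 without that sample and 0.45 with zeros as missing.

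Among enzymes that use phosphoribosyl pyrophosphate, UPP (AT3G53900), the uracil phosphoribosyltransferase of pyrimidine salvage, was listed at 0 in all 6 wild type samples and in 5 of the 6 kn09 samples, so no fold is given. Of the later steps of histidine synthesis, AT-HF (AT4G26900) averaged 0.102 ± 0.0731 (SD) over the 6 wild type and 0.121 ± 0.0669 (SD) over the 6 kn09 samples. On the log2 scale this was 1.07 ± 0.81 (SE), and the adjusted p in limma was 0.364. With zeros as missing, which drops 1 wild type value, its difference was -0.10, without wild type sample 5 it was 0.40 and without wild type samples 1 and 2 it was 1.83.

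Markers of green tissue moved the other way from AT2G35390. Of 24 such genes 4 had a single-gene feature, and 2 had only features shared with other genes, which are not given here. The summed intensity of the 4 ran from 32.5 to 51.5 in wild type and from 5.81 to 8.94 in kn09. Most of that sum was LHB1B2, which averaged 35.3 in wild type and 5.88 in kn09. On the log2 scale LHB1B2 fell by 2.63, PSAN fell by 2.42 and PRK fell by 2.06, and SBPASE had a difference of -2.09 with an adjusted p of 0.129 in limma and 2 kn09 values at 0. With zeros as missing the difference of SBPASE was -0.64 and with a pseudocount -1.04, neither past the threshold. The calls of the other 3 held with sample pairs averaged or as a random block. Of all features 13.6% passed as lower in limma on the 12 samples and 3.66% on the pair means. Of 15 root markers 0 had a single-gene feature, so the treated organ could not be checked. The part of tissue composition in the values of the 4 genes was not tested.

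Genes with the most similar pattern were looked for among the 415 other single-gene features without a value at 0, by Pearson's r of normalized log2 values over the 12 samples. These samples share the 2 groups and the sample pairs, so r is a description, and the r of the deviations from the group means stands beside it. The similar genes were picked on these same values, group difference included. Their own differences and calls, here and below, are therefore part of the description and no separate support. AT2G35390 was most like AT3G26630, a pentatricopeptide repeat gene, with r of 0.975 and 0.507 for the deviations. AT3G29410 and AT3G26580 followed, with r of 0.964 and 0.956 and deviations at 0.537 and 0.256. Both were higher in kn09, by 1.34 and 1.46 on the log2 scale, but with sample pairs averaged AT3G29410 missed the threshold at 0.0572, while AT3G26630 and AT3G26580 passed at 0.0283 and 0.0489.

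THIC was most like AT2G37880, with r of 0.945 over the 12 samples and 0.918 for the deviations, so the likeness lay within the groups as well as between them. AT2G19280 and AT2G44760 came next, with r of 0.912 and 0.871 and deviations at 0.870 and 0.806. None of these 3 genes passed in limma, with adjusted p of 0.0803, 0.156 and 0.0573, but calls of AT2G37880 and AT2G44760 depended on the setting. AT2G37880 passed with the replicate number as a block, at 0.0343, and without kn09 sample 1, at 0.0233. AT2G44760 passed with trend and robust eBayes, with a pseudocount, without the dimmest 25% of features and in the exact permutation test, at adjusted p of 0.0231 to 0.0397. With sample pairs averaged or as a random block none of the 3 passed.

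AT2G44530 was most like AT2G35490, of the plastid fibrillin family, with r of 0.791, then AILP1 with 0.776 and AT2G28660 with 0.717. For these 3 the r of the deviations was 0.878, 0.845 and 0.718. Their log2 differences were -0.69, -0.71 and -0.04, and none passed in limma. Without wild type samples 1 and 2 AT2G35490 passed at -1.06 with an adjusted p of 0.0255 and AILP1 at -1.19 with 0.0123, while AT2G28660 moved to -0.49 and did not pass. AILP1 also passed without normalization, at 0.0493, and with sample pairs averaged or as a random block none of the 3 passed. The sign of AT2G28660 turned in 6 of the 12 fits that left out a single sample, with values from -0.25 to 0.06. AT1G31220 was most like CSLA01, of the mannan synthase family, with r of 0.785, then AT2G02590 with 0.764 and AT4G17650 with 0.742. Their deviations had r of 0.749, 0.644 and 0.675 in the same order. AT2G02590 and AT4G17650 were higher in kn09, by 0.91 and 1.60 on the log2 scale with adjusted p of 0.0150 and 9.72e-04 in limma, and with sample pairs averaged they missed it, at 0.190 and 0.0551.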

How the data were processed

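The table holds 1 value per feature for 12 samples on a 1-channel array. The deposited intensity values were assumed to be linear, since they hold no value below 0 and crowd near it, and every fold rests on this assumption; how the authors scaled them is not given in the sources used here; scanner, background correction, normalization and filters are likewise not given. It is unknown what the scale refers to and whether values were centred. Titles gave each sample's group and number. GEO's platform annotation gave the genes, and Entrez identifiers linked them to current names in the TAIR10.1 table: of 3439 features 692 had 1 gene, 870 several and 1877 none, and 690 of the 692 matched a locus. The files name no build, so no coordinates are given.

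Values under the 1st percentile of a sample's positive values, zeros included, were set to that percentile, log2 was taken without a pseudocount, and samples were quantile normalized, since their log2 medians differed by more than 0.1. Group was the only term in limma 3.58.1 under R 4.3.3 (lmFit and eBayes, two-sided, Benjamini-Hochberg over all features at 0.05). The 4 genes, the lists and the tests were chosen with earlier results of these data known. Named are the 4 genes, every single-gene feature on a list, and the 3 most alike features of each gene. From the root list 3 genes were removed after the files were seen, as entered in error, 1 of them with a feature. The fit was tested on simulated data with samples drawn independently. That test lacks the likeness of the sample pairs, so it cannot show the error rate of the main fit where pairs are alike. Alternatives covered scaling, low values, dim features, blocks, the exact permutation test and left-out samples.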

Additional observations from a re-analysis of the deposited data

Results flagged for a closer look

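Of 67 groups of 6 values examined, 5 had 1 sample far apart. Chance gives about 1 in 20 for independent, normally distributed values. These intensities have a floor at 0 and samples alike in pairs, so that rate need not hold here. AT2G44530 stood at 0.286 in kn09 sample 4, above 0.0551 to 0.129 in the other kn09 samples. UPP had its single value above 0, 0.00158, in kn09 sample 2. AT1G12230 stood at 0.332 in kn09 sample 2, above 0 to 0.0522. A feature annotated with 2 adenylosuccinate lyase genes had 0.105 in kn09 sample 1 and 0 in the remaining kn09 samples. For this feature and for UPP the remaining kn09 values are all at 0, so any value above 0 would have been flagged. A feature annotated with 2 genes of the aminoimidazole ribotide carboxylase step reached 0.362 in wild type sample 4, against 0.138 to 0.193 elsewhere in wild type.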

How the results depend on the processing

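AT2G35390 passed under all 12 alternatives and in all 12 fits without 1 sample, with log2 differences of 2.52 to 2.88 and 2.71 to 2.95; the other 3 genes passed in none. The count of features called, 954 with 485 higher, was 213 with 87 higher on the pair means and 624 on the random block, and 794 to 1023 without 1 sample. The median of all features was -0.03 with quantile normalization, -0.28 with median centring and -0.37 without normalization, and 50.8%, 52.2% and 45.1% of calls were higher; against those medians the differences of AT2G44530 without normalization (-0.39) and with median centring (-0.30) lie close to the array as a whole. The shifts between AT2G35390 and the other 3 genes passed under the 7 alternatives run for shifts and without any 1 sample. That between AT2G44530 and AT1G31220 was -0.93 without wild type samples 1 and 2, where the call ended, and -1.01 to -0.68 without 1 sample. That between AT2G44530 and THIC passed at -1.19 without normalization or with median centring and at -0.99 with zeros as missing, and ran from -1.06 to -0.67 without 1 sample. That between AT1G31220 and THIC ran from -0.28 to 0.27 without 1 sample. The sign also turned for AT2G44530 without 1 sample (-0.386 to 0.0079), for AT-HF with zeros as missing (-0.10), for AT5G44520 with a pseudocount (0.0726) and without 1 sample (-0.69 to 0.19), for AT2G28660 without 1 sample (-0.25 to 0.0632), for CSLA01 without wild type samples 1 and 2 (-0.0195), and for the dimmer adenylosuccinate lyase feature with zeros as missing (0.078). The causes were not tested.

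The deviations of each of the 12 samples from its group correlated best with those of its own number in the other group. These correlations were weak, with r of 0.03 to 0.10, and what same-numbered samples share was not tested. The main fit left the number out, and a further limma fit took it as a block. There the SE of THIC was 0.23, against 0.34 in the main fit, with an unadjusted p of 0.0142. For AT1G31220 the SE was 0.29, against 0.34, with an unadjusted p of 0.0440. With the replicate number as a block the adjusted p was 5.41e-04 for AT2G35390 and 0.0555 for THIC, and no call among the 4 genes or the 6 shifts changed. No depth or detection flag is given, so how far dim features such as UPP and AT1G12230 can be read is unknown.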

Other observations

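Other steps of these pathways were covered by 9 features annotated with several genes, which cannot be assigned to any of them. Of these 1 was higher, 3 were lower and 5 did not pass in limma, where 14.1% of all features passed as higher and 13.6% as lower. The 4 that passed are on the list of purine synthesis; the 5 are on those of pyrimidine synthesis, later histidine synthesis and thiamine-dependent enzymes, with log2 differences from -0.94 to 0.29. These features were chosen after their annotation and values had been seen, and their values are given without a reading. A feature annotated with both genes of the aminoimidazole ribotide carboxylase step, which acts just after the point where THIC takes its substrate, went from 0.200 ± 0.0826 to 0.461 ± 0.0992 (SD over 6 samples each). The log2 difference, 1.33 ± 0.28 (SE), passed in limma with an adjusted p of 0.00401 and did not pass with sample pairs averaged, at 0.0834. Adenylosuccinate lyase, which acts later in the series, had 2 features annotated with both of its genes. The brighter went from 0.484 ± 0.191 to 0.215 ± 0.0691, which is -1.06 ± 0.31 (SE) on the log2 scale. Its adjusted p in limma was 0.0243, but 0.180 for averaged pairs and 0.0708 for pairs as a random block. The dimmer had 5 of its 6 kn09 values at 0 and ran from 0.0344 to 0.186 in wild type.

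A further feature is annotated with AT1G31220 and 2 other genes, and it went against the single-gene feature of AT1G31220. It went from 1.46 ± 0.529 to 0.751 ± 0.142 (SD over 6 samples each), or -0.91 ± 0.27 (SE) on the log2 scale, and limma gave an adjusted p of 0.0271. The call ended for averaged pairs at 0.222, for pairs as a random block at 0.0564 and under median centring at 0.114. The call also ended in 5 of the 12 fits without 1 sample, with adjusted p up to 0.0609.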
